A study of Homo sapiens with 9 samples.

Results

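The genes described are 10 human genes of the cytosolic heat shock system. They comprise the transcription factor HSF1, the HSP70 chaperones HSPA1A, HSPA1B and HSPA8, the exchange factors HSPA4 and HSPH1, the J-domain protein DNAJB1, the HSP90 chaperones HSP90AA1 and HSP90AB1, and the small heat shock protein HSPB1. They were picked by symbol among the 28809 genes that carry a symbol in the deposited TPM data, and their read counts were taken from a table of 62709 genes. RNA was sequenced from hTERT-MSC, an immortalised line of human mesenchymal stem cells of adipose origin, in 3 groups of 3 libraries: pseudopodia, cell body and whole cell. According to the protocols, starved cells sat for 2 h on membranes with 3 µm pores and were then exposed for 1 h to PDGF-BB at 50 ng/mL, an attractant for mesenchymal cells. Pseudopodia are what was scraped off the lower face of the membrane, and cell bodies are what was scraped off the upper face afterwards. The whole-cell libraries carry the same PDGF-BB label, and no separate account of how they were collected is given. By these protocols, given alike for every library, the 3 groups share the growth factor, the overnight starvation and the trypsin step, no group went without PDGF-BB, and all libraries come from 1 line. The labels do not say that the 3 libraries of a group were separate cultures, and the spread on which the p-values rest may thus be technical.

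Heat shock proteins are molecular chaperones that bind unfolded proteins and help them to fold. HSP70 proteins bind exposed stretches of a client in a cycle driven by ATP: a J-domain partner such as DNAJB1 brings the client and starts hydrolysis, and an exchange factor such as HSPH1 or HSPA4 releases ADP. HSP90 proteins take over clients close to their final shape, many of them kinases and receptors, and small heat shock proteins such as HSPB1 hold unfolded protein without using ATP. HSF1 binds heat shock elements, inverted repeats of nGAAn, in the promoters of many of these genes and switches them on under stress. In migrating cells HSPB1 is known to bind actin, and HSP90 to keep many signalling kinases active.

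The heat shock element can be read in the DNA before most of these genes. RefSeq promoter windows (build GRCh38.p14, the 250 bases before each annotated start) were available for 9 of the 10 genes, in 14 windows because some genes have several starts. The letters GAANNTTC or TTCNNGAA, which overlap each other and read the same on both strands, were found in 7 of these 14 windows, belonging to 7 genes, and in 11.6% of 34943 promoters. The longer repeat, TTCNNGAA followed directly by NNTTC on either strand, was found before a start of 3 genes, HSPA8, HSP90AA1 and HSP90AB1, and in 0.441% of promoters. The stretches of 30 bases around the longest match are shown because they are the sequence feature that most of these genes share. Each is written 5′ to 3′ on the strand of its gene, and capitals mark the match.
HSPA1A: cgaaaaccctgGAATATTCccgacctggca
HSPA1B: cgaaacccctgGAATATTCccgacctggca
HSPA8: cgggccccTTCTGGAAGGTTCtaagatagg
HSP90AA1: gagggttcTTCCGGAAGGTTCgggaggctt
HSP90AB1: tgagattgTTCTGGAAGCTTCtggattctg
HSPB1: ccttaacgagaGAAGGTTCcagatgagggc
DNAJB1: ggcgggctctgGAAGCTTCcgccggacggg
These lie at chr6:31815426-31815455 (HSPA1A, plus strand), chr6:31827622-31827651 (HSPA1B, plus), chr11:123062170-123062199 (HSPA8, minus), chr14:102087111-102087140 (HSP90AA1, minus), chr6:44247823-44247852 (HSP90AB1, plus), chr7:76302480-76302509 (HSPB1, plus) and chr19:14518426-14518455 (DNAJB1, minus). The first capital stands 106 bases before the RefSeq start of HSPA1A, 105 before that of HSPA1B and 55 before that of HSPA8. For HSP90AA1, HSP90AB1 and DNAJB1 the match belongs to 1 of several annotated starts, at 88, 112 and 47 bases before it. In HSPB1 the match begins 182 bases before the start. The windows of HSPA4 and HSPH1 do not hold these letters. A match describes the letters only and does not show that HSF1 binds there.

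All 10 genes passed the filter on low counts and were tested among 19426 genes with edgeR's quasi-likelihood test, all 9 libraries in 1 fit. Totals per library lay between 55469030 and 83894938 counts. Levels are given as CPM, counts scaled to library total with TMM factors, and a gene is called where its Benjamini-Hochberg adjusted p over all tested genes is under 0.05. The spread between replicates was unequal, with a biological coefficient of variation of 33.0% in pseudopodia, 17.6% in cell bodies and 5.08% in whole cells, while the test uses 1 spread per gene. Of the markers of mesenchymal stem cells, 7 of 7 were present and summed to between 2792 and 2899 CPM in pseudopodia, 5959.5 and 7356 in cell bodies, and 5509.6 and 5651 in whole cells; 7 of 7 were called lower in pseudopodia than in cell bodies, and 6 of 7 lower than in whole cells. The endothelial list summed to between 63.8 and 80.1 CPM in pseudopodia, 76.1 and 107 in cell bodies, and 74.8 and 77.1 in whole cells, most of it TEK. The epithelial list summed to at most 33.0, 29.5 and 21.4 CPM in the same groups, the haematopoietic list to at most 4.55, 13.2 and 3.28, and the adipocyte list to at most 1.25, 0.697 and 1.21, with FABP4 at 0 in every library. Some of these markers moved with the groups: of 13 tested markers of other cell types, 2 were called higher and 4 lower in pseudopodia against cell body, 5 higher and 3 lower in pseudopodia against whole cell, and 4 higher and 1 lower in cell body against whole cell. VWF, an endothelial marker, had 14.6 ± 6.30 CPM in pseudopodia and 1.32 ± 0.232 in whole cells (SD, n = 3 each; log2 fold change 3.47, edgeR adjusted p = 4.88e-05), and CD14, a monocyte marker, had 11.5 ± 1.20 CPM in cell bodies and 2.37 ± 0.201 in whole cells (2.28, 8.63e-06). The part of these marker lists in the results below was not tested. In bulk libraries of fractions like these, fewer cells of a type, less RNA per cell and a different place of the mRNA within the cell cannot be told apart.

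Between pseudopodia and cell body, the mRNAs of the inducible and constitutive HSP70 proteins were lower in pseudopodia, and those of HSF1 and HSP90AB1 were higher. Of the 10 genes, 5 were called, 2 of them higher and 3 lower, where 38.5% of all tested genes were called, 18.6% higher and 19.9% lower. The median log2 fold change of the 10 was -0.10, against -0.046 over all tested genes. The pseudopodia and cell body libraries did not overlap for 5 of the 10 genes and for 47.1% of all tested genes. The calls thus went in both directions, in a comparison where calls were common.

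**Figure D1:**
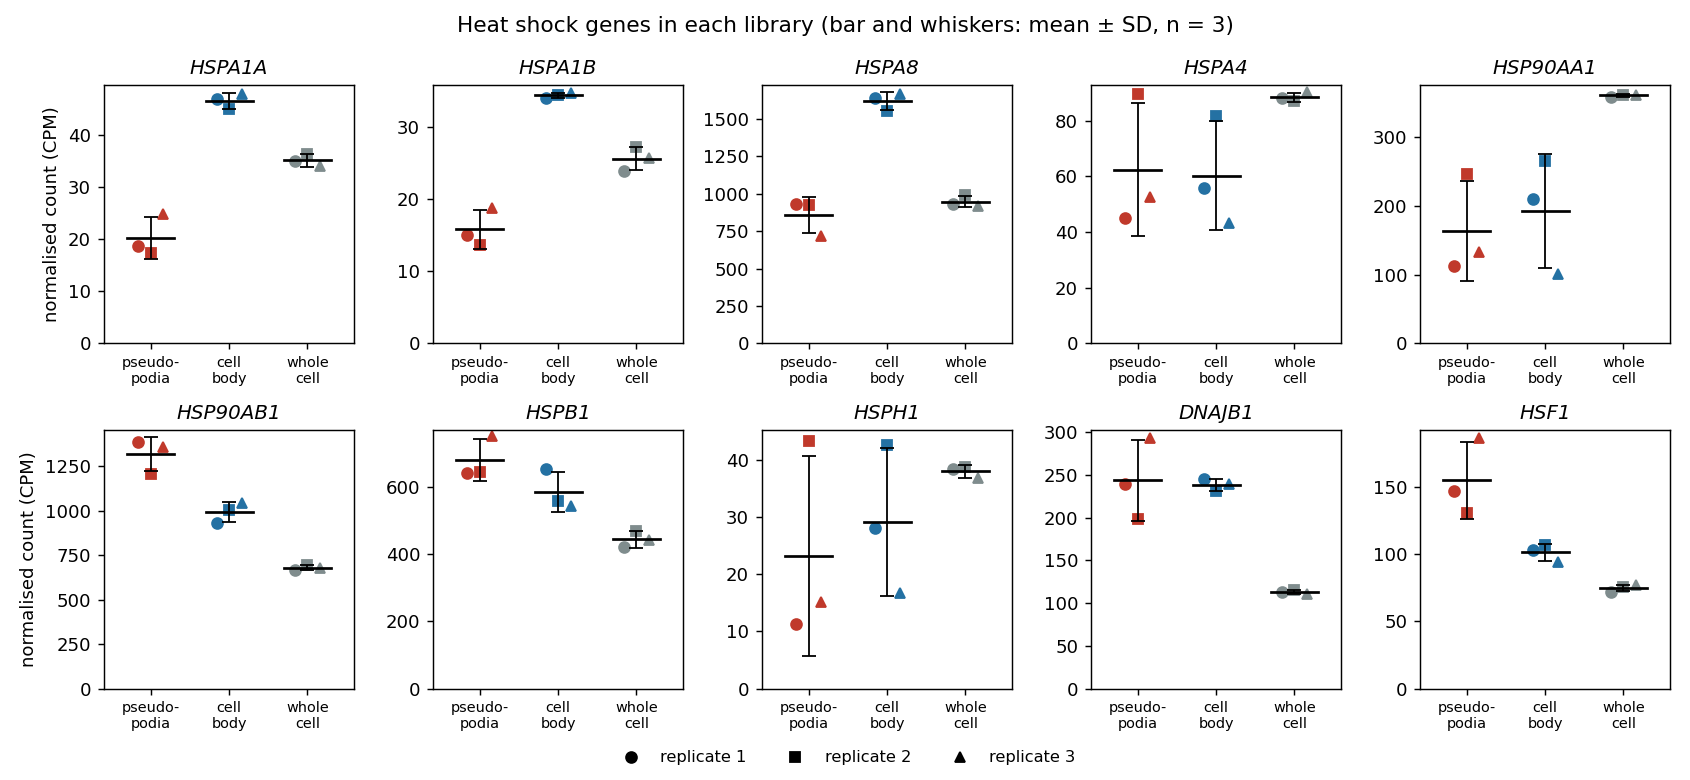
Normalised counts (CPM, linear axes from 0) of the 10 heat shock genes in each library, with the 3 libraries of a group as separate symbols and the mean ± SD as bar and whiskers. HSPA1A, HSPA1B and HSPA8 sit lower in pseudopodia than in cell bodies, HSF1 and HSP90AB1 sit higher, and HSPA4, HSP90AA1 and HSPH1 scatter in both fractions and lie close together in whole cells.

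HSF1, the master regulator of the heat shock response, had 147, 131 and 187 CPM in the pseudopodia libraries 1, 2 and 3. In cell bodies it had 103, 107 and 94.3 CPM, and in whole cells 71.9, 75.5 and 76.7 CPM. Every pseudopodia library lay above every cell body library, and every cell body library above every whole-cell library. The log2 fold change was 0.61 ± 0.141 (SE) for pseudopodia against cell body (edgeR adjusted p = 0.00539), 1.05 ± 0.142 for pseudopodia against whole cell (8.39e-05), while cell body against whole cell gave 0.44 ± 0.141 (0.0291). HSF1 (ENSG00000185122, chromosome 8, 144291591 to 144314722 on GRCh38) is rich in GC, 64.7% of its longest transcript. Tested genes of 60% GC or more also had positive median log2 fold changes, of 0.30, 0.45 and 0.15 in these comparisons. After correction for GC content and transcript length HSF1 had 0.40, 0.71 and 0.31, and all 3 remained called. The DGAT1 gene overlaps it on the opposite strand and had up to 21.9% of the HSF1 count.

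HSPA1A and HSPA1B encode the stress-inducible HSP70 and lie next to each other in the major histocompatibility region of chromosome 6 (HSPA1A, ENSG00000204389, 31815464 to 31817946; HSPA1B, ENSG00000204388, 31827735 to 31830255). Their coding sequences of 1926 bases differ at 4 positions, the longest identical run is 1709 bases, and the 641 encoded residues are the same. Reads of either gene could therefore be assigned to both or to neither, and the values of the pair are uncertain for that reason. HSPA1A had 18.8, 17.3 and 24.8 CPM in pseudopodia, 46.9, 44.9 and 47.9 CPM in cell bodies, and 35.1, 36.5 and 34.0 CPM in whole cells. HSPA1B had 15.0, 13.6 and 18.8 CPM in pseudopodia, 34.1, 34.4 and 34.8 CPM in cell bodies, and 23.9, 27.2 and 25.8 CPM in whole cells. For both genes every pseudopodia library lay below every library of the other groups, and whole cell lay between the fractions. HSPA1A was 2.29-fold lower in pseudopodia than in cell bodies (log2 fold change -1.20 ± 0.147, edgeR adjusted p = 7.83e-05) and 1.73-fold lower than in whole cells (-0.79 ± 0.146, 0.000725). HSPA1B was 2.18-fold lower than in cell bodies (-1.12 ± 0.144, 0.000103) and 1.62-fold lower than in whole cells (-0.70 ± 0.143, 0.00142). Their count ratio, HSPA1A over HSPA1B, stayed between 1.25 and 1.47 in all 9 libraries. When both were summed to 1 row, the calls against cell body and whole cell held.

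HSPA8 encodes HSC70, the constitutive HSP70 that also strips clathrin coats from vesicles (ENSG00000109971, chromosome 11, 123057489 to 123063230). It had 934, 924 and 719 CPM in pseudopodia, 1641, 1552 and 1665 CPM in cell bodies, and 931, 990.0 and 921 CPM in whole cells. Cell body stood apart as the high group, and pseudopodia overlapped whole cell. HSPA8 was 1.89-fold lower in pseudopodia than in cell bodies (log2 fold change -0.91 ± 0.128, edgeR adjusted p = 0.000199) and 1.71-fold higher in cell bodies than in whole cells (0.77 ± 0.127, 0.000970). Pseudopodia against whole cell gave -0.14 ± 0.127 and was not called (0.353), although on the log2(TPM + 1) scale it was called lower at -0.61 (limma adjusted p = 0.00197).

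DNAJB1 encodes the main stress-inducible J-domain partner of HSP70, known as HSP40 (ENSG00000132002, chromosome 19, 14514770 to 14529770). It had 239, 198 and 293 CPM in pseudopodia, 245, 231.5 and 239.6 CPM in cell bodies, and 113, 116 and 111 CPM in whole cells. Both fractions lay well above whole cell in every library, and the fractions overlapped each other. The log2 fold change was 0.029 ± 0.142 for pseudopodia against cell body (edgeR adjusted p = 0.889), 1.11 ± 0.143 for pseudopodia against whole cell (6.26e-05), while cell body against whole cell gave 1.08 ± 0.143 (0.000256). DNAJB1 overlaps TECR on the opposite strand, and TECR had up to 47.7% of the DNAJB1 count. Whether the counting used strand is not given in the sources used here.

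HSPA4 and HSPH1 belong to the HSP110 group, relatives of HSP70 that act as its nucleotide exchange factors (HSPA4, ENSG00000170606, chromosome 5, 133051962 to 133106449; HSPH1, ENSG00000120694, chromosome 13, 31134974 to 31162388). HSPA4 had 44.97, 89.6 and 52.6 CPM in pseudopodia, 55.7, 81.8 and 43.3 CPM in cell bodies, and 88.2, 87.1 and 90.3 CPM in whole cells. HSPH1 had 11.4, 43.3 and 15.1 CPM in pseudopodia, 28.0, 42.6 and 16.7 CPM in cell bodies, and 38.4, 38.7 and 36.7 CPM in whole cells. In both fractions replicate 2 was the highest library and near or above the whole-cell level, while the other libraries were lower. Neither gene was called in any comparison: for pseudopodia against cell body the log2 fold change was 0.051 ± 0.281 for HSPA4 (edgeR adjusted p = 0.903) and -0.32 ± 0.486 for HSPH1 (0.637). Against whole cell, pseudopodia gave -0.50 ± 0.281 for HSPA4 (0.147) and -0.71 ± 0.487 for HSPH1 (0.236), and cell body gave -0.55 ± 0.282 (0.148) and -0.38 ± 0.485 (0.564). Without pseudopodia replicate 2, HSPH1 was called lower in pseudopodia than in cell bodies, at -1.14 (0.0217). Both genes were then also called lower in pseudopodia than in whole cells, HSPA4 at -0.85 (0.00791) and HSPH1 at -1.52 (0.00355). With all 9 libraries, limma-voom called both lower too, at -0.91 (limma adjusted p = 0.00273) and -1.60 (0.00363), as did the log2(TPM + 1) scale. Tested genes of 40% to 45% GC, the class of HSPA4, had a median of -0.47 in this comparison. Those under 40%, the class of HSPH1, had -1.09. With the GC and length correction HSPA4 had 0.096 and HSPH1 0.12, neither called. The part of GC content was not tested. HSPA4 was called lower in cell bodies than in whole cells without pseudopodia replicate 2 (-0.55, 0.0471) or without cell body replicate 2 (-0.83, 0.0443). The same call was made with only the 6 libraries of the groups compared (-0.53, 0.0472) and on the log2(TPM + 1) scale (-0.77, limma adjusted p = 0.0493).

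The HSP90 genes differed in direction against whole cell, HSP90AB1 being called higher and HSP90AA1 lower in pseudopodia. HSP90AB1, the constitutive form (ENSG00000096384, chromosome 6, 44246166 to 44253888), had 1389.6, 1208 and 1361 CPM in pseudopodia, 931, 1006 and 1042 CPM in cell bodies, and 667, 694 and 680.2 CPM in whole cells. The groups did not overlap, and the order was pseudopodia, cell body, whole cell from high to low. HSP90AB1 was 1.33-fold higher in pseudopodia than in cell bodies (log2 fold change 0.41 ± 0.111, edgeR adjusted p = 0.0130), 1.94-fold higher than in whole cells (0.96 ± 0.112, 3.00e-05), and 1.46-fold higher in cell bodies than in whole cells (0.55 ± 0.111, 0.00332). The first of these was not called without pseudopodia replicate 1 (0.37, 0.0574), with only the 6 libraries of the groups compared (0.35, 0.0599), or on the TPM scales, where log2(TPM + 1) gave 0.12 (limma adjusted p = 0.237).

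HSP90AA1, the stress-inducible form (ENSG00000080824, chromosome 14, 102080738 to 102139699), had 112, 247 and 133 CPM in pseudopodia, 210.3, 265 and 102 CPM in cell bodies, and 359, 362 and 362 CPM in whole cells. Every fraction library lay below every whole-cell library, and the fractions overlapped. It was 2.20-fold lower in pseudopodia than in whole cells (log2 fold change -1.14 ± 0.369, edgeR adjusted p = 0.0235), gave -0.91 ± 0.367 for cell body against whole cell (0.0795) and -0.23 ± 0.365 for pseudopodia against cell body (0.651). The call against whole cell was lost without pseudopodia replicate 1 (-0.92, 0.0780) or 3 (-0.999, 0.125) and without whole-cell replicate 1 (-1.11, 0.0582), 2 (-1.10, 0.0599) or 3 (-1.14, 0.0544). This call was also lost without the low-count filter (-1.05, 0.118) and with the GC and length correction (-0.77, 0.0711). Cell body was called lower than whole cell in 9 of 24 alternatives. Among them were the edgeR fit without pseudopodia replicate 2 (-0.90, 0.0307), DESeq2 (-0.88, DESeq2 adjusted p = 0.0256) and limma-voom (-1.08, limma adjusted p = 0.0286). WDR20, on the opposite strand, had up to 29.03% of the HSP90AA1 count. Per length, the deposited TPM of HSP90AB1 was 15.7 ± 6.59 times that of HSP90AA1 in pseudopodia, 10.5 ± 6.09 times in cell bodies and 3.22 ± 0.0501 times in whole cells (SD, n = 3 each). The lowest such ratio in pseudopodia, 8.38, and in cell bodies, 6.48, both in replicate 2, still lay above the highest in whole cells, 3.27.

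HSPB1, the small heat shock protein HSP27 (ENSG00000106211, chromosome 7, 76302544 to 76304295), had 641, 646 and 753 CPM in pseudopodia, 653, 558 and 543 CPM in cell bodies, and 421, 471 and 443 CPM in whole cells. Both fractions lay above whole cell, and they overlapped each other through cell body replicate 1. HSPB1 was 1.53-fold higher in pseudopodia than in whole cells (log2 fold change 0.61 ± 0.125, edgeR adjusted p = 0.00140) and 1.31-fold higher in cell bodies than in whole cells (0.39 ± 0.124, 0.0273). Pseudopodia against cell body gave 0.22 ± 0.124 and was not called (0.192). By limma-voom HSPB1 was called higher there, at 0.20 (limma adjusted p = 0.0306). Its longest transcript has 64.3% GC, and with the GC and length correction this difference was -0.030. On the log2(TPM + 1) scale the difference from whole cell was 0.15 for pseudopodia and not called (limma adjusted p = 0.172).

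Against whole cell, 7 of the 10 genes were called in pseudopodia, 4 higher and 3 lower, where 61% of all tested genes were called, 27.9% higher and 33.1% lower; the libraries did not overlap for 7 of the 10 and for 70% of all genes. The higher genes were DNAJB1, HSF1, HSP90AB1 and HSPB1, and the lower ones HSP90AA1, HSPA1A and HSPA1B. DESeq2 also called 4 higher and 3 lower, where it called 5608 of the 19426 tested genes higher and 6268 lower. By limma-voom 4 were higher and 5 lower, with HSPA4 and HSPH1 added, where it called 7093 of the 19426 tested genes higher and 8224 lower. With 1 library left out, 6 to 9 of the 10 were called. Calls over all tested genes were then fewest without whole-cell replicate 1, at 4843 higher and 5440 lower of 19872. They were most common without pseudopodia replicate 2, at 5689 and 6978 of 20154. In cell body against whole cell 7 genes were called as well, all 7 higher, where 38.6% of tested genes were called, 18.1% higher and 20.5% lower; here 9 of the 10 did not overlap, against 64.9% of all genes. None was called lower in that comparison by edgeR, 1 gene, HSP90AA1, was lower at an unadjusted p under 0.05, and DESeq2 and limma-voom each called 1 lower. Of the 19426 tested genes DESeq2 called 4041 lower there and limma-voom 6245. The calls of HSPA1A (0.40 ± 0.145, edgeR adjusted p = 0.0469), HSPA1B (0.42 ± 0.142, 0.0346), HSPB1 and HSF1 in cell body against whole cell were near the threshold. Only 3 genes were called without cell body replicate 1 or without any 1 of the whole-cell libraries, namely HSPA8, HSP90AB1 and DNAJB1. These 3 were called in every alternative run. Calls over all tested genes were also fewer in these fits than the 3521 higher and 3980 lower of 19426 in the main fit. They were 3062 higher and 3269 lower of 20374 without cell body replicate 1. Without whole-cell replicate 1, 2 or 3 they were 2338 and 2711 of 19872, 2696 and 2996 of 20145, and 2436 and 2880 of 20096. Among the fits with 1 library left out they were most common without pseudopodia replicate 3, at 4988 and 5411 of 20371. Without cell body replicate 1 the adjusted p was 0.0912 for HSPA1A, 0.0661 for HSPA1B, 0.0748 for HSPB1 and 0.0638 for HSF1. Without whole-cell replicate 1, 2 or 3 it was 0.124, 0.0946 and 0.141 for HSPA1A, 0.132, 0.0660 and 0.0986 for HSPA1B, 0.114, 0.0571 and 0.0881 for HSPB1, and 0.102, 0.0759 and 0.0747 for HSF1, with log2 fold changes that stayed positive. Without cell body replicate 2 the calls of HSPA1A (0.44, 0.0809), HSPA1B (0.44, 0.0799) and HSF1 (0.41, 0.0828) were lost, and without cell body replicate 3 those of HSPA1A (0.41, 0.109) and HSPA1B (0.45, 0.0814). Without pseudopodia replicate 1 the call of HSPA1A was lost (0.41, 0.0574).

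**Figure D2:**
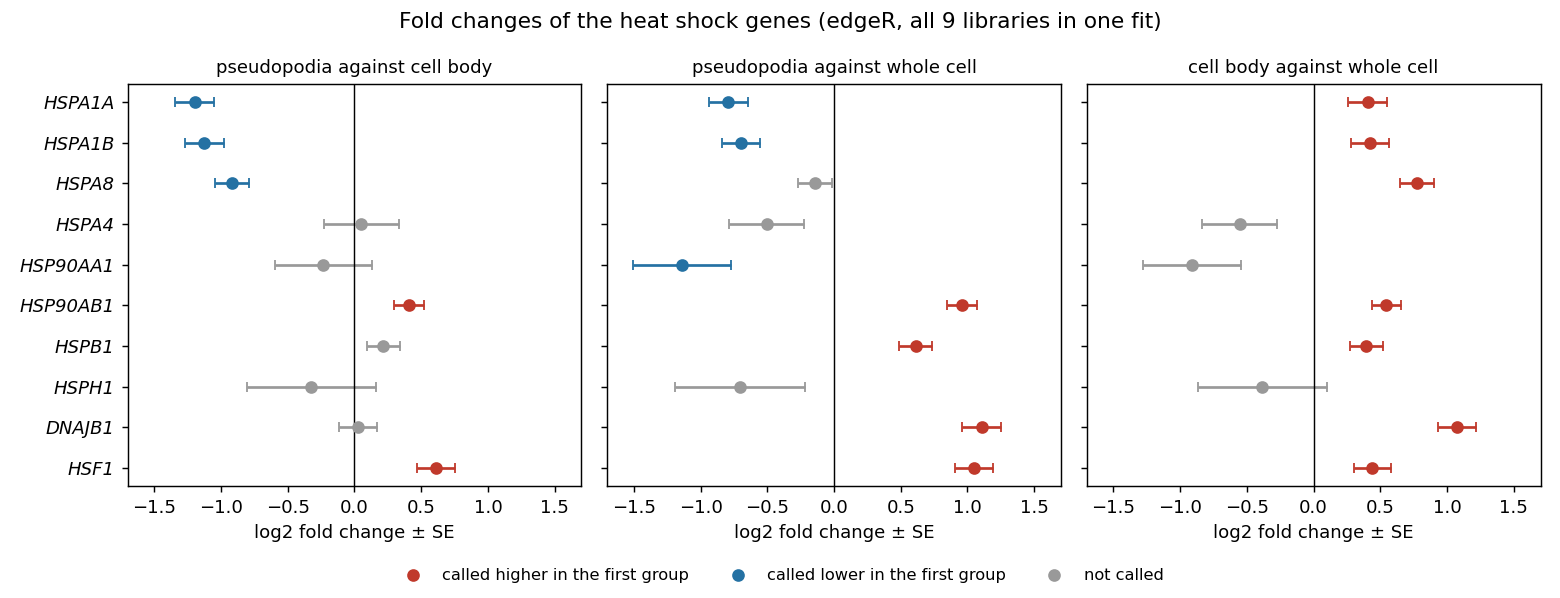
Log2 fold changes ± SE of the 10 heat shock genes in the 3 comparisons, from the edgeR fit of all 9 libraries; red points were called higher in the first-named group, blue points lower, and grey points were not called. Against cell body, pseudopodia run from -1.20 for HSPA1A to 0.61 for HSF1, and the widest error bars belong to HSPH1, HSP90AA1 and HSPA4.

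The whole-cell mean was also placed relative to the means of the fractions. It lay between the fractions for HSPA1A, HSPA1B and HSPA8, as for 25.2% of tested genes. It lay below both fractions for HSP90AB1, HSPB1, DNAJB1 and HSF1, as for 33.9% of genes, and above both for HSPA4, HSP90AA1 and HSPH1, as for 41% of genes. CPM are shares of each library, so a level above or below both fractions does not show RNA gained or lost.

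The genes that lay above both fractions in whole cells were also the ones that varied most between replicates of a fraction. As a coefficient of variation, HSPH1 had 75.2% in pseudopodia, 44.6% in cell bodies and 2.81% in whole cells. HSP90AA1 had 44.2%, 43.3% and 0.462%, and HSPA4 had 38.2%, 32.6% and 1.82%. Over the 5879 tested genes whose mean level reached that of the least abundant of the 10, the medians were 18.3%, 9.41% and 3.33%, so these 3 genes lay above the median in both fractions and below it in whole cells. On the log2 scale pseudopodia replicate 2 stood above its group mean by 1.15 for HSPH1, 0.68 for HSP90AA1 and 0.59 for HSPA4. Cell body replicate 2 stood above by 0.65, 0.57 and 0.49, and cell body replicate 3 deviated by -0.70, -0.81 and -0.43. The other 7 genes deviated by 0.31 or less in every library.

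These 3 genes also have the lowest GC content of the 10, 39.95% for HSPH1, 42.5% for HSPA4 and 45.2% for HSP90AA1. Tested genes under 40% GC, the class of HSPH1, had a median deviation of 0.11, 0.54 and -0.58 in pseudopodia replicates 1, 2 and 3, and of 0.079, -0.0039 and -0.056 in cell body replicates 1, 2 and 3. Genes of 40% to 45% GC, the class of HSPA4, had 0.081, 0.21 and -0.27 in pseudopodia and -0.0022, 0.023 and 0.010 in cell bodies. Genes of 45% to 50% GC, the class of HSP90AA1, had 0.020, -0.036 and 0.026 in pseudopodia and -0.052, 0.033 and 0.040 in cell bodies. The part of GC content in the spread of the 3 genes was not tested.

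**Figure D3:**
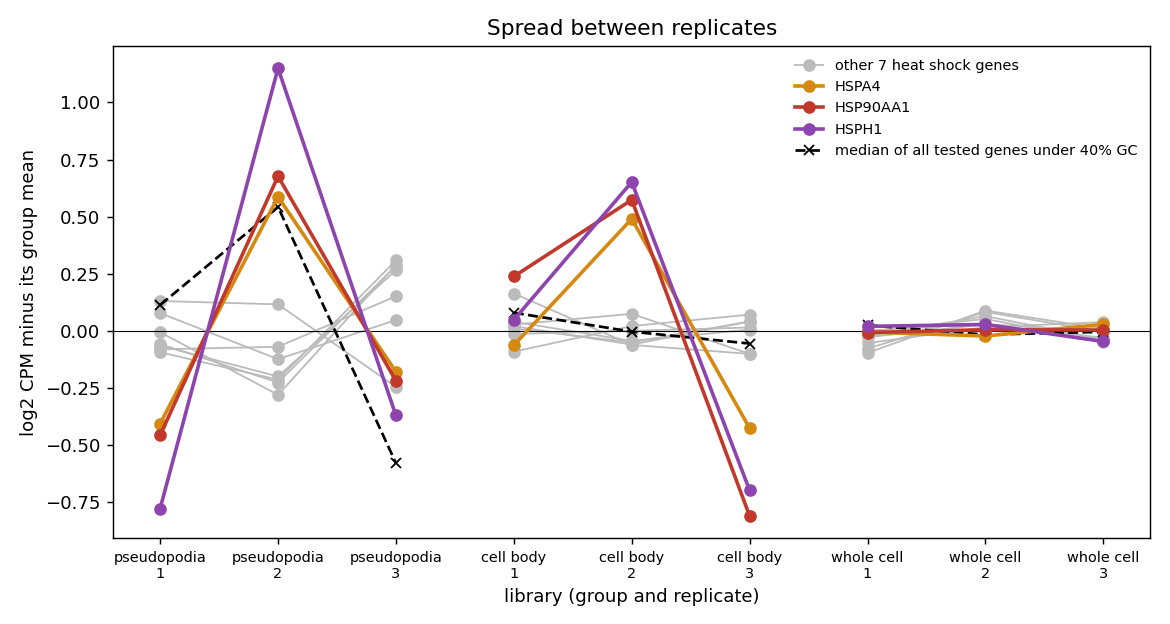
Deviation of each library from its group mean on the log2 CPM scale, for HSPA4, HSP90AA1 and HSPH1 in colour, the other 7 heat shock genes in grey, and the median of all tested genes under 40% GC as a dashed line with crosses; lines join values of 1 gene and imply no order of replicates. HSPH1 reaches 1.15 in pseudopodia replicate 2, and all genes lie near 0 in whole cells.

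Per length, in the deposited TPM, HSP90AB1, HSPB1 and HSPA8 were the most abundant of the 10 in every group. In pseudopodia they stood at 1501 ± 80.9, 1419 ± 80.8 and 603 ± 106 TPM (SD, n = 3), and the first 2 did not differ beyond their spread. In cell body HSPB1 had 1490 ± 147 TPM, HSPA8 1382 ± 71.9 and HSP90AB1 1379 ± 90.8, an order within the spread. In whole cell HSPB1 had 1279.7 ± 47.2 TPM, HSP90AB1 1066 ± 10.6 and HSPA8 912 ± 31.8, each apart from the next. HSP90AA1 came next throughout, at 110.1 ± 52.8 TPM in pseudopodia, 155 ± 65.4 in cell bodies and 331 ± 6.25 in whole cells, and in the fractions its spread reached the levels of the genes after it. HSPH1 was the least abundant, with 9.55 ± 7.52, 14.3 ± 6.16 and 21.1 ± 0.891 TPM. The inducible HSPA1A had 28.5 ± 4.40, 80.1 ± 3.85 and 68.4 ± 2.62 TPM, which was 4.93% ± 1.77, 5.80% ± 0.0409 and 7.50% ± 0.0949 of the HSPA8 level. Together the 10 genes took 0.326% ± 0.0128 of a pseudopodia library, 0.389% ± 0.0232 of a cell body library and 0.306% ± 0.00881 of a whole-cell library.

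For each gene the 3 tested genes with the most similar profile over the 9 libraries (Pearson r of log2 CPM, a description only, since all profiles share the 3 group levels) were listed. HSPA1A came closest to CTSB (r = 0.997), which encodes the lysosomal protease cathepsin B, to POR (0.997) and to ISLR (0.996). HSPA1B shared POR (0.998) and CTSB (0.997) with it and added CKAP4 (0.997). HSPA8 came closest to TVP23B (0.996), HSF1 to GSK3A (0.997), HSP90AB1 to PFKFB3 (0.993), HSPB1 to SWI5 (0.995) and DNAJB1 to PSMD8 (0.997). HSPA4, HSP90AA1 and HSPH1 had lower best values of 0.982 with ICE1, 0.984 with TTC3P1, and 0.983 with the gene ENSG00000279138.

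The wider chaperone network was followed in 8 lists of 102 genes, 97 of them tested, chosen with earlier results of these data known. In pseudopodia against cell body 10 of the 97 were called higher and 20 lower, a smaller share than the 38.5% called over all tested genes (18.6% higher, 19.9% lower), with a median log2 fold change of -0.15, against -0.046 over all tested genes. ER chaperones made up 8 of the lower calls, out of 11 tested, at a median of -1.04. HSPA5, the main HSP70 of the ER, known as BiP, had 105.2 ± 16.9 CPM in pseudopodia and 569.7 ± 12.9 CPM in cell bodies (SD, n = 3 each; -2.44 ± 0.137, edgeR adjusted p = 3.70e-07). DNAJC3, an ER J-domain protein, had 13.8 ± 5.53 and 47.7 ± 7.84 CPM in the same groups (-1.79 ± 0.251, 0.000279).

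Among HSP70 relatives, exchange factors and adaptors, 3 of 17 were called higher in pseudopodia than in cell bodies and 3 lower. BAG1, an exchange factor, had 80.7 ± 9.99 CPM in pseudopodia and 38.5 ± 1.08 in cell bodies (1.07 ± 0.124, edgeR adjusted p = 4.97e-05). ST13, the adaptor HIP that stabilises HSP70 on its client, had 479 ± 82.1 and 282 ± 8.73 CPM (0.76 ± 0.136, 0.00107). HSPA13, an HSP70 relative of the microsomes, was lower, at 8.40 ± 5.10 CPM in pseudopodia and 45.7 ± 0.714 in cell bodies (-2.44 ± 0.444, 0.00221). Of 15 J-domain proteins of the cytosol and nucleus 1 was called higher and 2 lower, among them DNAJB4, with 27.1 ± 13.6 CPM in pseudopodia and 80.0 ± 10.99 in cell bodies (-1.56 ± 0.328, 0.00479).

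Of 18 HSP90 co-chaperones 2 were called higher in pseudopodia than in cell bodies and 1 lower, again a smaller share than the 38.5% of all tested genes. CDC37, which delivers kinases to HSP90, had 260.4 ± 44.4 CPM in pseudopodia and 165.9 ± 11.1 in cell bodies (0.65 ± 0.137, edgeR adjusted p = 0.00320), although it overlaps PDE4A on the opposite strand. CHORDC1 was lower, at 2.58 ± 2.02 and 8.11 ± 1.38 CPM (-1.64 ± 0.462, 0.0200). Of the 14 subunits of the chaperonin TRiC and of prefoldin, which fold and hold actin and tubulin, 3 were called lower. CCT5 had 77.1 ± 4.38 CPM in pseudopodia and 121.4 ± 4.27 in cell bodies (-0.66 ± 0.107, 0.000599). HSF2, a relative of HSF1 active in development, had 4.49 ± 1.21 CPM in pseudopodia and 9.93 ± 2.89 in cell bodies (-1.14 ± 0.239, 0.00304), opposite in direction to HSF1. It was 1 of 5 tested heat shock factors and binding proteins, of which 1 was called higher and 1 lower. Of 5 tested small heat shock proteins 1 was higher and 1 lower, and of 12 mitochondrial chaperones and proteases 2 were higher and 1 lower. Apart from the ER chaperones, the share called in these 8 lists was near or below the 38.5% of all tested genes.

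Against whole cell most calls in these lists were higher, with exceptions. In pseudopodia 38 of 97 were called higher and 16 lower (median log2 fold change 0.27, against -0.12 over all tested genes), where 27.9% of all tested genes were called higher and 33.1% lower. In cell bodies 45 of 97 were called higher and 4 lower (median 0.38, against -0.064), where 18.1% of all tested genes were called higher and 20.5% lower. These comparisons share the whole-cell libraries. The ER chaperones went the other way in pseudopodia, where 1 of 11 was called higher than in whole cells and 6 lower, at a median of -0.57, and of 5 heat shock factors and binding proteins 2 were higher and 2 lower. In cell bodies the 4 lower calls were HSPA4L, DNAJC21, HSP90B1 and HSF4, the last a heat shock factor at 5.25 ± 1.35 CPM in cell bodies and 12.2 ± 0.490 in whole cells (-1.22 ± 0.193, edgeR adjusted p = 0.000776). In cell body the higher calls took in 10 of 14 TRiC and prefoldin subunits, 8 of 18 HSP90 co-chaperones, 7 of 17 HSP70 relatives and partners, 7 of 11 ER chaperones, 6 of 15 J-domain proteins, 4 of 12 mitochondrial genes and 3 of 5 small heat shock proteins. BAG3, an HSP70 exchange factor of stress and of muscle, had 199.0 ± 15.1 CPM in cell bodies and 71.7 ± 1.96 in whole cells (1.47 ± 0.116, edgeR adjusted p = 7.38e-06). HSPB8, the small heat shock protein that BAG3 binds, had 96.0 ± 1.84 and 32.7 ± 1.03 CPM (1.55 ± 0.138, 1.62e-05). DNAJA1 had 151 ± 2.15 and 73.1 ± 2.42 CPM (1.05 ± 0.170, 0.000875). AC084880.1, a processed pseudogene overlapping HSPB8 on the same strand, had 22 to 437 counts per library, against 1975 to 6877 for HSPB8.

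The HSP90 co-chaperones AHSA1, which speeds up its ATPase, and STIP1, which links HSP70 to HSP90, were also higher in cell bodies than in whole cells. AHSA1 had 73.3 ± 4.72 and 37.3 ± 2.29 CPM (0.98 ± 0.114, edgeR adjusted p = 0.000107), and STIP1 had 93.9 ± 5.53 and 49.5 ± 2.42 CPM (0.92 ± 0.133, 0.000437). VIPAS39, on the opposite strand of AHSA1, had 1147 to 2568 counts per library, against 2331 to 5631 for AHSA1. HSPA6, an HSP70 gene that is nearly silent without stress, had 31, 27 and 53 counts in pseudopodia, 52, 51 and 51 in cell bodies, and 8, 10 and 1 in whole cells. HSP90B1, the ER form of HSP90, went the other way, with 230.4 ± 100.0 CPM in cell bodies and 707.8 ± 17.0 in whole cells (-1.62 ± 0.475, 0.0249). Its cell body libraries had 273, 302 and 116 CPM, with replicate 2 highest and replicate 3 lowest as for HSP90AA1. Without whole-cell replicate 1, the number of list genes called in cell body against whole cell was 32 in place of 49. Of all tested genes that fit called 2338 higher and 2711 lower of 19872, against 3521 and 3980 of 19426 in the main fit.

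**Figure D4:**
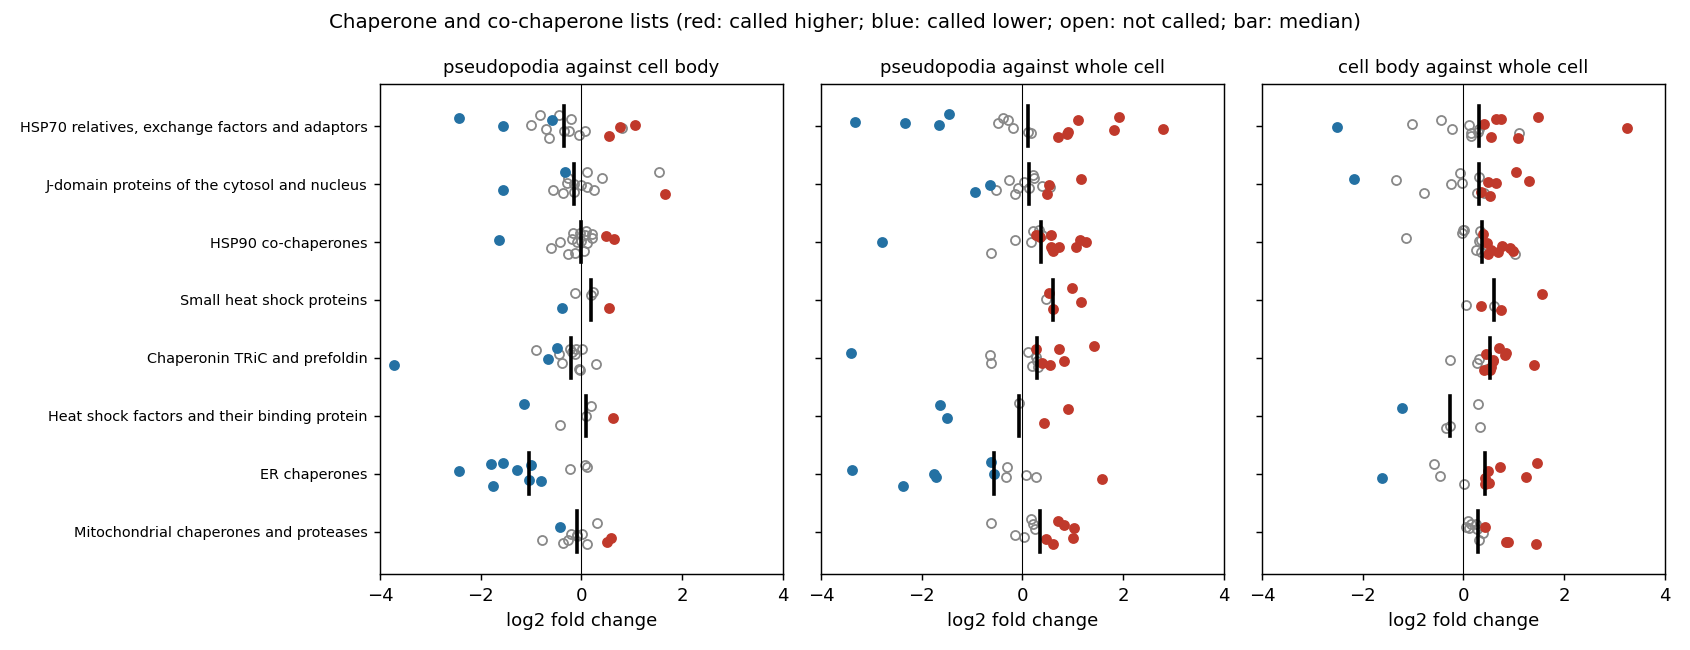
Log2 fold changes of the tested genes of the 8 chaperone lists in the 3 comparisons; filled red and blue points were called higher and lower in the first-named group, open points were not called, and the bar marks the list's median. The ER chaperones lie lowest in pseudopodia against cell body, with a median of -1.04, and most lists lie to the right of 0 in cell body against whole cell.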

How the data were processed

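The authors deposited 1 table of whole-number counts, which the labels tie to featureCounts. The authors also deposited TPM values, 1 set for each library. The submitters' processing notes name GRCh38 as genome build and list DESeq2. Aligner, annotation release and strand setting were not given in the sources used here. The count table had 62710 rows; 1 row without values was left out. Gene positions, GC content and transcript lengths came from GENCODE release 29 on GRCh38, and promoter sequences from RefSeq.

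The counts were fitted in edgeR 4.0.16 (R 4.3.3) with TMM factors, the filterByExpr filter by group and the robust quasi-likelihood test, all 9 libraries in 1 fit with 3 groups and 6 residual degrees of freedom. Adjusted p-values run over 19426 genes, and standard errors come from the test statistic. The fit was tested on simulated data. Alternatives included DESeq2 1.42.0, limma 3.58.1 (voom, and log2 of TPM with a pseudocount of 1 or 0.1), other scalings and filters, a GC and length correction, and leaving out each library.

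The members and lists were chosen with earlier results of these data known. The text names all 10 members, and from each list, per comparison, only genes among the 2 highest and 2 lowest called fold changes. No set test was run. Counts carry no molecular identifiers.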

Additional observations from a re-analysis of the deposited data

How the results depend on the processing

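Of the 19 calls on the 10 genes in 3 comparisons, 12 kept their call and direction in every alternative run. They were HSPA1A, HSPA1B, HSPA8 and HSF1 in pseudopodia against cell body, HSPA1A, HSPA1B, HSP90AB1, DNAJB1 and HSF1 in pseudopodia against whole cell, and HSPA8, HSP90AB1 and DNAJB1 in cell body against whole cell. Over 711 alternatives for 30 values, 600 kept direction and side of the threshold, 52 lost the call, 32 gained it and 27 changed sign; none that changed sign had been called. With 1 library left out, 4 to 6 genes were called in pseudopodia against cell body and 6 to 9 in pseudopodia against whole cell. In cell body against whole cell there were 3 to 9, and also 3 with upper-quartile factors and 4 with log2(TPM + 0.1). The list genes called in pseudopodia against cell body were 58 by limma-voom, 49 with log2(TPM + 1) and 50 with log2(TPM + 0.1), in place of 30, and 22 to 45 when 1 library was left out. In cell body against whole cell they were 32 to 67 when 1 library was left out, and in pseudopodia against whole cell 45 to 62. Of all 19426 tested genes limma-voom called 5175 higher and 5949 lower in pseudopodia against cell body, and log2(TPM + 0.1) 2297 and 6090. Of the summed TPM the 10 genes took 0.393% in pseudopodia, 0.481% in the cell body and 0.394% in whole cells, and of counts without mitochondrially encoded genes 0.349% in pseudopodia and 0.323% in whole cells. Over all genes, the main fit called 3605 higher and 3870 lower in pseudopodia against cell body, 5412 and 6430 in pseudopodia against whole cell, and 3521 and 3980 in cell body against whole cell. With log2(TPM + 1) the splits were 2310 and 5907, 3227 and 9687, and 2643 and 5898. The last was 2719 and 4543 with upper-quartile factors and 2552 and 5315 with log2(TPM + 0.1). With 1 library left out it ran from 2338 and 2711 of 19872 to 4988 and 5411 of 20371. With the GC and length correction the last 2 were 7091 and 5394, and 5634 and 3840. The median of all genes in pseudopodia against whole cell was -0.12 in the main fit and -0.34 with log2(TPM + 1).

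Changes of sign in pseudopodia against cell body were these. DNAJB1 (0.029) was -0.27 on both TPM scales, -0.023 with the filter of 5 CPM in 3 libraries and -0.033 with 6 libraries. It lay between -0.13, without pseudopodia replicate 3, and 0.16 when 1 library was left out. HSPA4 (0.051) was -0.33 by limma-voom, -0.24 with log2(TPM + 1), -0.25 with log2(TPM + 0.1), between -0.31 and 0.33 when 1 library was left out, and -0.023 when replicate 2 of both fractions was left out, an alternative chosen after seeing the data. HSPB1 (0.22) was -0.067 on both TPM scales, and -0.030 with the GC and length correction, or -0.032 with the replicate block added. HSP90AA1 (-0.23) lay between -0.65 and 0.067 when 1 library was left out, and was 0.00363 with the GC and length correction in the same fit as the replicate block, also chosen after seeing the data. HSPH1 (-0.32) lay between -1.14 and 0.054 when 1 library was left out, with 0.00491 without pseudopodia replicate 1. With the GC and length correction, without and with the replicate block, pseudopodia against whole cell gave 0.085 and 0.082 for HSPA8, 0.096 and 0.067 for HSPA4, and 0.12 and 0.019 for HSPH1, and cell body against whole cell gave 0.15 and 0.083 for HSPH1. The cause was not tested.

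Whether replicate numbers pair the samples was not settled. Deviations of libraries with the same number correlated by at most 0.09 over genes, and not every library correlated best with its own number. With 3 libraries per group such correlations cannot show that the samples are unpaired. With the replicate number as a block, 5, 8 and 6 of the 10 genes were called in the 3 comparisons and 29, 50 and 46 list genes. Over all 19426 tested genes this fit called 3267 higher and 3653 lower, 5131 and 6363, and 3051 and 3747, in the same order. In cell body against whole cell 4 of the 6 called members were higher and 2, HSP90AA1 (-1.01) and HSPA4 (-0.62), lower.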
